A study of Drosophila melanogaster with 42 samples.

Results

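The peaks of MSL2 and MSL3 in M1[WT] males were compared record by record, with all records of both lists included. The lists hold 12239 of the 39130 peak records in the 6 lists of the series, 6110 for MSL2 and 6129 for MSL3. A record is 1 interval called against nonspecific IgG, with 1 summit, the base that the list marks as its peak. A record was called shared when a record of the other protein lay within 500 bp of its edges, and private otherwise. Records on the X chromosome (2351 of MSL2 and 1829 of MSL3) were kept apart from those on the autosomes (3743 and 4289). The 16 MSL2 and 11 MSL3 records on other sequences entered no comparison between the chromosomes, and 10 and 9 of them were shared.

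The MSL complex raises the expression of X-linked genes in Drosophila males. It is built from MSL1, MSL2, MSL3, the acetyltransferase MOF, the helicase MLE and a roX RNA. MSL2, a RING finger protein made in males, binds DNA through its CXC domain and reaches GA-rich recognition elements in the high-affinity sites (HAS) of the X chromosome, with help from the zinc finger protein CLAMP. MSL3 carries a chromodomain that reads methylated lysine of histone H3 over the bodies of active genes, and it is linked to spreading of the complex away from the HAS.

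The flies of M1[WT] lack functional msl-1 and carry a transgene, Ubi:msl-1WT, in the homozygous state at the attP site ZH-86Fb. The ubiquitous Ubi-p63E promoter drives it, so MSL1 is made outside its own control and in all tissues. The paper reports more MSL1 and MSL2 protein in these males than in wild-type males. It also reports stronger binding of MSL1, MSL2 and MSL3 at HAS. The records below therefore describe males with raised MSL1 and MSL2, not wild-type males. Chromatin came from whole adult males, 3 days old in the labels, so the records are a mixture over all cell types. Each protein has 2 libraries, which the authors joined into 1 list, so no comparison below has replicate lists. The titles place both MSL3 libraries in M1[WT] males, whereas their genotype label reads M1[wt]_M2. The titles were followed. IgG libraries in the labels come only from control flies without transgenes, so both lists may share a control. The lists were built with depths that are not known here, and their values were used only as ranks within a list.

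The sequences at 8 summits are shown first, to let the GA repeat counted below be seen in place. They were picked from the named sites after the repeats were known, and 5 of the 6 MSL2 windows hold one, whereas only 14.3% of all X-linked MSL2 summits have a repeat within 100 bp. Neither MSL3 window holds one, although 126 X-linked MSL3 summits have it. A GA repeat was a run of at least 8 alternating G and A bases on either strand (GAGAGAGA, AGAGAGAG, TCTCTCTC or CTCTCTCT), and capitals mark each such run. The 4 forms overlap by shifting a run by 1 base. All sequences are plus strand bases of the RefSeq Release 6 genome, the dm6 build of the lists. The MSL2 summit of the lncRNA gene roX1 (X:3861336), the strongest of its list, and the MSL2 summit in the lncRNA gene roX2 (X:11580249) show a known HAS each. The roX1 window holds shorter GA stretches and no run of 8.
roX1, MSL2 summit, chrX:3861296-3861376: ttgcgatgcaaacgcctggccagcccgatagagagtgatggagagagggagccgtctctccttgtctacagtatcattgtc
roX2, MSL2 summit, chrX:11580224-11580299: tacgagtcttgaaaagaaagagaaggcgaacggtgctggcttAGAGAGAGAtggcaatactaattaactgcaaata
The next windows show MSL2 summits inside wide MSL3 records, in PhKgamma (a coding exon) and in rictor (an intron).
PhKgamma, MSL2 summit, chrX:11703243-11703319: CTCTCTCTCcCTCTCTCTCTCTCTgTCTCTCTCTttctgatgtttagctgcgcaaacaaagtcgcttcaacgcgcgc
rictor, MSL2 summit, chrX:19260056-19260134: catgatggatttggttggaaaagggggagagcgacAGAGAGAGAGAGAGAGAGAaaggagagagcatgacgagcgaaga
An intron of Raf holds a private MSL2 record, 80 bp from its GA repeat to its summit, and an intron of mod(mdg4) holds a shared autosomal one.
Raf, MSL2 summit, chrX:2303923-2304065: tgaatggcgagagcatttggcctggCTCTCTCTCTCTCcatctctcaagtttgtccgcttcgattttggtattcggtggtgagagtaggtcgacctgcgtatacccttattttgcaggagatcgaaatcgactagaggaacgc
mod(mdg4), MSL2 summit, chr3R:21376386-21376451: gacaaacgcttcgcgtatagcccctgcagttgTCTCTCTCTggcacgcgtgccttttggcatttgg
The last windows are centred on MSL3 summits in coding exons, of Pp2C1, where the record is shared, and of CG2076, where it is private.
Pp2C1, MSL3 summit, chrX:4683072-4683152: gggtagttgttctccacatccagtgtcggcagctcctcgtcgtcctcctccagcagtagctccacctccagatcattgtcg
CG2076, MSL3 summit, chrX:11091406-11091486: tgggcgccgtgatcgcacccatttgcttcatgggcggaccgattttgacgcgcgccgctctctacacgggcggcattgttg

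Most X-linked records of either protein had a partner. Of the MSL2 records, 1885 of 2351 were shared (80.2%, 95% Wilson interval 78.5 to 81.7), and of the MSL3 records, 1477 of 1829 (80.8%, 78.9 to 82.5). On the autosomes the shares were lower, with 1849 of 3743 MSL2 records (49.4%, 47.8 to 51.0) and 1930 of 4289 MSL3 records (45.0%, 43.5 to 46.5). As background, 22.8% of X positions lay within 500 bp of an MSL3 record and 20.2% within 500 bp of an MSL2 record. On the autosomes these backgrounds were 7.96% and 5.93%. These are shares of single positions, whereas records were matched from their edges, so wide records exceed them more easily. The same holds for the backgrounds of other lists and of HAS below. All intervals given cover counting error only, and neighbouring records are not independent of each other. The X and autosomal intervals did not overlap for either protein.

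The records not shared numbered 466 for MSL2 and 352 for MSL3 on the X chromosome, and 1894 and 2359 on the autosomes. Most shared records overlapped their partner. Overlap was found for 1816 X-linked MSL2 records (77.2%) and 1562 autosomal ones (41.7%), and for 1387 X-linked MSL3 records (75.8%) and 1599 autosomal ones (37.3%). Small gaps were rare, and records on both sides of the limit of 500 bp were more frequent. Of the X-linked MSL2 records without overlap, 10 lay 1 to 250 bp from an MSL3 record and 59 lay 251 to 500 bp away, and of the autosomal ones 50 and 237. The autosomal MSL2 share therefore moved with the limit, from 41.7% for overlap to 49.4% at 500 bp and 55.8% at 1000 bp. Of the X-linked MSL2 records, 19 lay 401 to 500 bp from the nearest MSL3 record and 15 lay 501 to 600 bp away, with median widths of 590 and 487 bp. For MSL3, 32 records lay just inside the limit and 26 just outside it, with median widths of 917.5 and 805.5 bp. On the autosomes these counts were 97 and 74 for MSL2, and 117 and 77 for MSL3. Private records were mostly far from the other protein, with a median gap of 3120 bp for X-linked MSL2 records and 1825 bp for X-linked MSL3 records. On the autosomes the median gaps of private records were 4855 and 4022 bp.

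**Figure D1:**
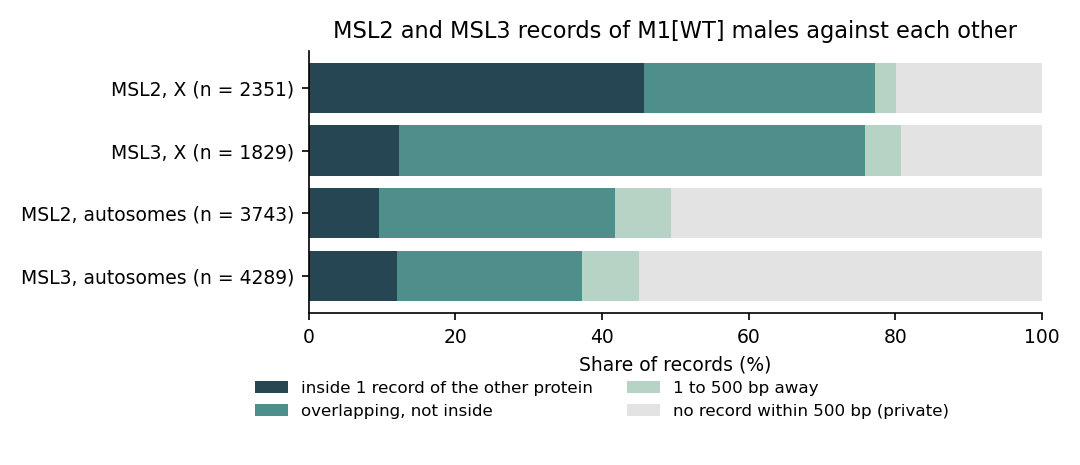
Share of MSL2 and MSL3 records (%, horizontal axis) on the X chromosome and the autosomes that lay inside 1 record of the other protein, overlapped one without lying inside, lay 1 to 500 bp away, or were private. About 80% of the records of either protein were shared on the X chromosome, and MSL2 records there lay inside an MSL3 record far more often (45.8%) than the reverse (12.3%).

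The sharing differed between chromosome arms. For MSL2 it ran from 46.1% on 2L to 53.1% on 3R among the large autosomal arms, and for MSL3 from 42.5% on 2R to 48.1% on 3R. The small chromosome 4 had the lowest shares, with 17 of its 48 MSL2 records (35.4%) and 16 of its 78 MSL3 records (20.5%). These counts are small and no intervals were computed for single arms, so how far counting error sets the order of the arms was not tested. Chromosome 4 carried 57.9 MSL3 records per Mb, above the other autosomal arms (35.9 to 41.8) and below the X chromosome (77.7). Its density of MSL2 records, 35.6 per Mb, was close to the other arms (31.9 to 35.5), against 99.9 per Mb on the X chromosome. On the X chromosome MSL2 therefore had more records than MSL3, although its records covered less, 12.4% of the chromosome against 17.1%. On the autosomes MSL2 records covered 2.83% and MSL3 records 4.57%.

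Containment was unequal on the X chromosome, where MSL3 records were the wider ones. A wide record holds others more easily, so containment and width are not independent measures. There 1076 of the 2351 MSL2 records lay whole inside 1 MSL3 record (45.8%, 43.8 to 47.8), while 225 of the 1829 MSL3 records lay inside 1 MSL2 record (12.3%, 10.9 to 13.9). On the autosomes 361 MSL2 records (9.64%, 8.74 to 10.6) lay inside an MSL3 record and 519 MSL3 records (12.1%, 11.2 to 13.1) inside an MSL2 record. The X-linked MSL2 records that were contained sat in 757 MSL3 records, of which 551 held 1 MSL2 record and 206 held 2 or more. Those 206 records had a median width of 5371 bp, against 1963 bp for the 551, and held 525 MSL2 records. On the autosomes 336 MSL3 records held 1 MSL2 record, 11 held 2 and 1 held 3. In the other direction, 199 X-linked MSL2 records held 1 MSL3 record and 13 held 2, and on the autosomes 461 held 1, 26 held 2 and 2 held 3. Strict containment depends on the edges. When edges could stick out by 100 bp, the shares on the X chromosome became 63.8% for MSL2 and 28.3% for MSL3, and on the autosomes 20.7% and 21.9%. The summit alone lay inside a record of the other protein for 75.6% of X-linked MSL2 and 71.8% of X-linked MSL3 records, and for 35.5% and 31.8% on the autosomes.

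MSL3 records were wider than MSL2 records. On the X chromosome the median width was 809 bp for MSL2 (quartiles 481 and 1532.5 bp) and 1343 bp for MSL3 (660 and 2815 bp), and the widest records spanned 14060 and 26305 bp. On the autosomes the medians were 665 bp for MSL2 (421 and 1099 bp) and 894 bp for MSL3 (528 and 1527 bp). Each list also gives the interval called in its 2 IDR inputs, which stand for replicates or pseudoreplicates and are not named in the files. With these inputs the X-linked medians were 816 and 832 bp for MSL2 and 1263 and 1297 bp for MSL3. Only records called in both inputs are listed, so these values do not measure variation between libraries. When each shared MSL2 record was set against its strongest MSL3 partner, the MSL3 record was the wider in 1545 of 1885 pairs on the X chromosome (82.0%) and in 966 of 1849 on the autosomes (52.2%). Shared X-linked MSL2 records had a median width of 983 bp and private ones 418 bp. For X-linked MSL3 these medians were 1532 and 935 bp. On the autosomes private MSL2 records were also narrower (549.5 bp against 819 bp), whereas MSL3 records had close medians, 914 bp when private and 870.5 bp when shared. A wide record meets a partner more easily than a narrow one, so width and sharing are not independent measures.

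**Figure D2:**
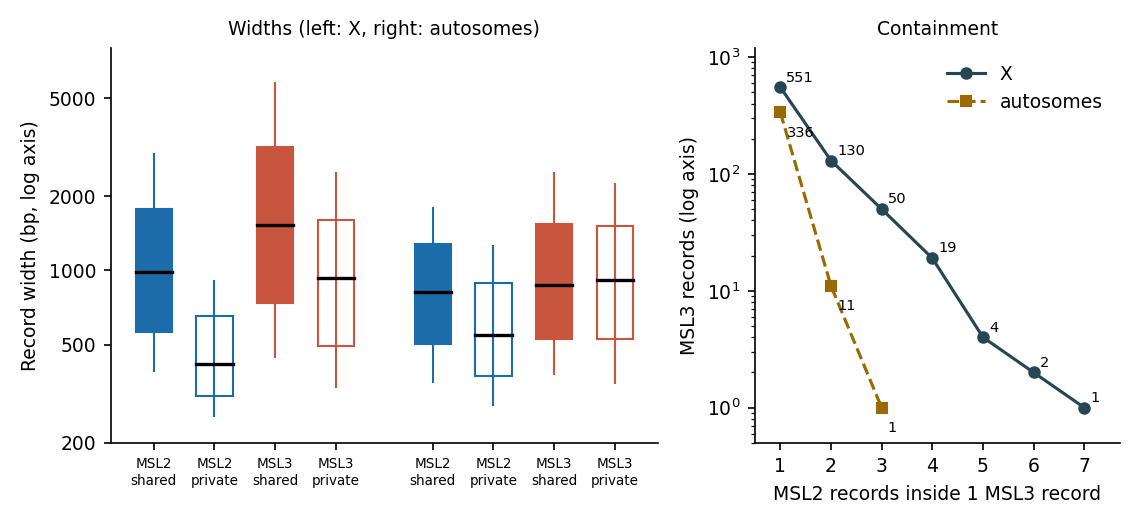
Left, record width (bp, log axis) by protein and sharing on the X chromosome and the autosomes, with the median (black line), the quartiles (box) and the range from the 10th to the 90th percentile (thin line); filled boxes are shared records. Right, number of MSL3 records (log axis) that held a given number of MSL2 records. Shared X-linked MSL3 records were the widest group (median 1532 bp), and up to 7 MSL2 records lay inside 1 of them.

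Many summits of the 2 proteins lay side by side and many lay far apart. On the X chromosome the nearest MSL3 summit lay within 25 bp of 404 MSL2 summits (17.2%) and within 100 bp of 739 (31.4%, 29.6 to 33.3). Another 137 MSL2 summits lay 101 to 250 bp away and 141 lay 251 to 500 bp away, while 293 lay 501 to 1000 bp, 393 lay 1001 to 2000 bp and again 393 lay 2001 to 5000 bp away. The median over all X-linked MSL2 records was 760 bp (quartiles 49 and 2200 bp), and over all X-linked MSL3 records the median distance to the nearest MSL2 summit was 307 bp (31 and 1367 bp). On the autosomes 807 MSL2 summits lay within 100 bp of an MSL3 summit (21.6%, 20.3 to 22.9). The autosomal medians were 1643 bp from MSL2 and 2060 bp from MSL3. Among shared records alone the medians were 365 bp on the X chromosome and 178 bp on the autosomes from MSL2, and 100 and 219.5 bp from MSL3.

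The summits of the 2 IDR inputs of 1 list were also compared. They lay a median of 16 bp apart for X-linked MSL2 records and 25 bp apart for X-linked MSL3 records, with 88.6% and 83.2% of records within 100 bp. On the autosomes these medians were 14 and 26 bp. A record is listed only where both inputs called it, which keeps these distances small, and the inputs may be pseudoreplicates. The distances between the proteins run to the nearest summit, private records included, so the 2 kinds of distance are given side by side and not compared. Computing the X-linked distances from each of the 4 pairs of inputs gave medians from 751 to 771 bp and 31.6% to 32.5% of MSL2 summits within 100 bp of an MSL3 summit.

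**Figure D3:**
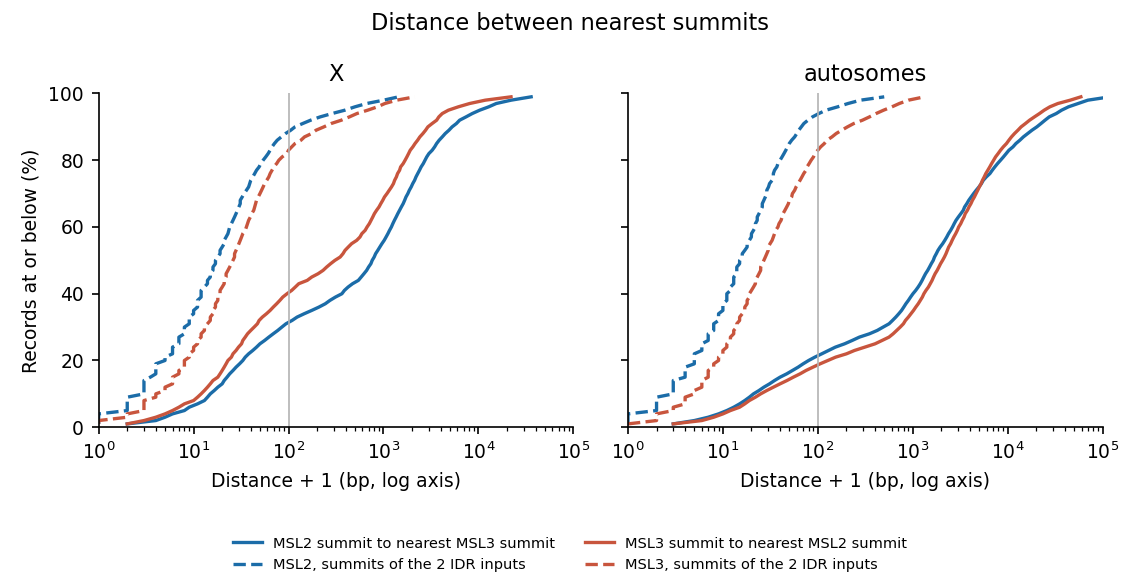
Cumulative share of records (%, vertical axis) by distance between nearest summits (bp plus 1, log axis) on the X chromosome and the autosomes. Solid lines are distances between the proteins, dashed lines the distances between the 2 IDR inputs of 1 list, and the grey line marks 100 bp. The solid lines rise, level off between about 100 and 500 bp, and rise again. On the dashed lines, where both inputs had to call the record, 83.2% or more lie within 100 bp.

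Inside the MSL3 records that held MSL2 records, the position of the MSL3 summit was compared with the MSL2 summits. Of the 551 X-linked MSL3 records with 1 MSL2 record inside, 54.6% had their summit within 100 bp of it (50.5 to 58.7). Of the 206 with 2 or more, 117 had their summit within 100 bp of 1 of the MSL2 summits (56.8%, 50.0 to 63.4). In 126 of the 206 the nearest MSL2 record was also the strongest MSL2 record inside. As 130 of the 206 held only 2 MSL2 records, the nearest would often be the strongest without any preference, and a preference was not tested. On the autosomes 237 of 336 records with 1 MSL2 record had their summits within 100 bp (70.5%, 65.5 to 75.2).

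The proteins differed in where in a gene their summits lay. Coding exons make up 16.7% of X-linked bases, and they held 41.0% of MSL2 summits and 65.0% of MSL3 summits (62.7 to 67.1). Among private X-linked records the contrast was larger. Coding exons held 252 of 352 private MSL3 summits (71.6%, 66.7 to 76.0) but 62 of 466 private MSL2 summits (13.3%, 10.5 to 16.7). Introns, 46.7% of X bases, held 268 private MSL2 summits (57.5%, 53.0 to 61.9) and 37 private MSL3 summits (10.5%, 7.72 to 14.2). Shared X-linked MSL2 summits lay in coding exons more often, in 902 of 1885 cases (47.9%, 45.6 to 50.1). On the autosomes, where coding exons make up 17.1% of bases, they held 1765 of 2359 private MSL3 summits (74.8%, 73.0 to 76.5) and 185 of 1894 private MSL2 summits (9.77%, 8.51 to 11.2).

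Autosomal MSL2 summits were mostly at promoters. Start sites of annotated transcripts were near many of them: within 500 bp of one lay 2246 of 3743 autosomal MSL2 summits (60.0%, 58.4 to 61.6) and 1246 of 4289 autosomal MSL3 summits (29.1%, 27.7 to 30.4), where 13.6% of autosomal positions lie so close. On the X chromosome 802 MSL2 summits (34.1%, 32.2 to 36.1) and 402 MSL3 summits (22.0%, 20.1 to 23.9) did, against 12.4% of X positions. For autosomal MSL2 it was 62.8% of shared (60.6 to 65.0) and 57.2% of private summits (55.0 to 59.4), intervals that did not overlap, and for X-linked MSL2 35.2% (33.0 to 37.4) and 29.8% (25.9 to 34.1), intervals that did. The difference was larger for autosomal MSL3, with 43.6% of shared (41.4 to 45.8) and 17.2% of private summits (15.7 to 18.7). Private X-linked MSL3 summits were at the level of the background, with 46 of 352 (13.1%, 9.94 to 16.99).

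Along protein-coding genes, private MSL3 summits lay toward the 3′ end. Summits within exactly 1 protein-coding gene were placed on a scale from 0 at the 5′ end to 100 at the 3′ end of the annotated gene. The median position of private X-linked MSL3 summits was 74.3 (n = 294), and 122 of them lay in the last quintile of the gene length (41.5%, 36.0 to 47.2). Private X-linked MSL2 summits had a median of 41.1 (n = 341), with 36 in the last quintile (10.6%, 7.72 to 14.3). Shared X-linked summits were spread more evenly, with medians of 51.5 for MSL2 and 55.3 for MSL3. On the autosomes private MSL3 summits had a median of 67.7 (n = 2001), while private MSL2 summits had 23.1 (n = 1171) and shared MSL2 summits 19.1 (n = 1275). The first quintile of the gene length held 1186 of 2446 autosomal MSL2 summits (48.5%, 46.5 to 50.5) and 153 of 2001 private autosomal MSL3 summits (7.65%, 6.56 to 8.89).

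**Figure D4:**
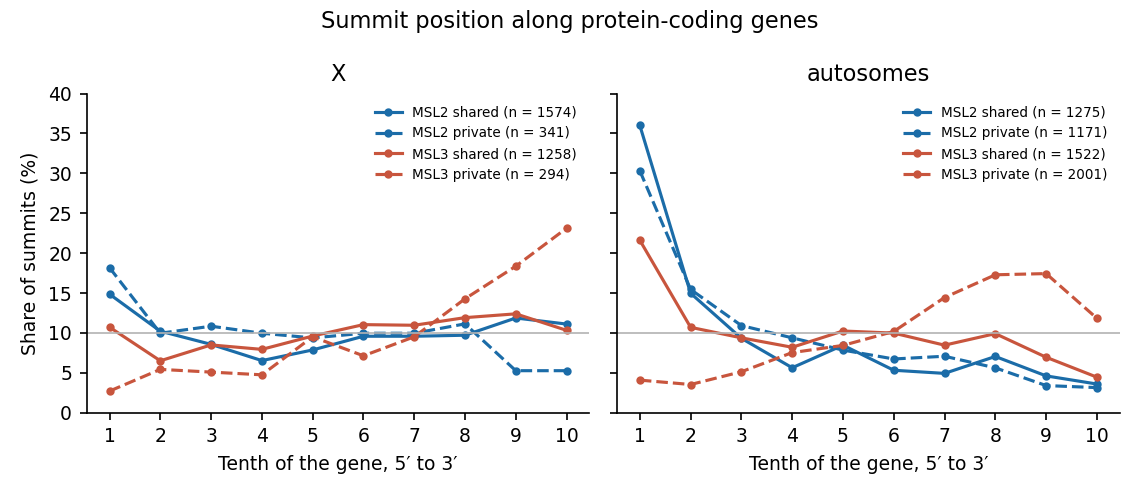
Share of summits (%, vertical axis) in each decile of the length of the protein-coding gene that holds them, from the 5′ to the 3′ end, on the X chromosome and the autosomes; the grey line at 10% is an even spread. Solid lines are shared and dashed lines private records. Private MSL3 summits rise toward the 3′ end on the X chromosome, to 23.1% in the last decile, and 36.0% of shared autosomal MSL2 summits lie in the first decile.

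The same order was seen within pairs. Among shared X-linked MSL2 records whose nearest MSL3 summit lay in the same single gene, 1310 pairs in 716 genes were available, and in 696 of them the summits lay over 100 bp apart. The MSL3 summit was on the 3′ side of the MSL2 summit in 423 of these 696 pairs (60.8%, 57.1 to 64.3). On the autosomes it was so in 331 of 486 pairs (68.1%, 63.8 to 72.1). Pairs of 1 gene are not independent, and the X-linked pairs over 100 bp apart came from 485 genes.

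Counted over genes, sharing was also more frequent on the X chromosome. Of 2196 X-linked protein-coding genes, 856 held a summit of both proteins (39.0%). Another 204 held MSL2 summits without MSL3 (9.29%), 231 MSL3 summits without MSL2 (10.5%) and 905 neither. The 856 genes are 80.8% of the X-linked genes with an MSL2 summit and 78.7% of those with an MSL3 summit. Of 11749 autosomal genes, 1223 held both (10.4%), 655 MSL2 alone (5.57%), 1469 MSL3 alone (12.5%) and 8402 neither. These 1223 genes are 65.1% of the autosomal genes with an MSL2 summit and 45.4% of those with an MSL3 summit. Genes with a summit of either protein were more frequent on the X chromosome, and how far that sets these shares was not tested. A summit in overlapping genes was counted for each of them.

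The GA repeat was found more often at MSL2 than at MSL3 summits, and on the X chromosome most often at private MSL2 summits. It lay within 100 bp of 336 of 2351 X-linked MSL2 summits (14.3%, 12.9 to 15.8) and of 126 of 1829 X-linked MSL3 summits (6.89%, 5.82 to 8.14), where 1.97% of consecutive 201 bp windows of the X chromosome hold one. Of the private X-linked MSL2 summits, 115 of 466 had the repeat (24.7%, 21.0 to 28.8), against 221 of 1885 shared ones (11.7%, 10.3 to 13.3). For MSL3 the order was the opposite, with 4 of 352 private (1.14%, 0.443 to 2.88) and 122 of 1477 shared summits (8.26%, 6.96 to 9.77). On the autosomes, with 1.39% of windows, the repeat was near 8.63% of MSL2 summits (7.77 to 9.57) and 3.40% of MSL3 summits (2.90 to 3.99). Private and shared autosomal MSL2 summits had it in 9.56% (8.31 to 10.96) and 7.68% (6.55 to 8.98) of cases, intervals that overlap. Private autosomal MSL3 summits had it in 1.10% of cases (0.753 to 1.61).

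Introns hold more GA repeats than coding exons, so the summits were also split by feature. Windows centred in introns of the X chromosome held a repeat in 2.48% of cases and those centred in coding exons in 0.542%. On the autosomes these values were 1.70% and 0.467%. Among intronic X-linked MSL2 summits, 79 of 268 private (29.5%, 24.3 to 35.2) and 91 of 385 shared ones (23.6%, 19.7 to 28.1) had a repeat, intervals that overlap. In coding exons the repeat was near 2 of 62 private and 15 of 902 shared X-linked MSL2 summits (1.66%, 1.01 to 2.73). For intergenic summits the values were 23 of 87 private (26.4%, 18.3 to 36.6) and 17 of 173 shared (9.83%, 6.23 to 15.2). The intervals of private and shared MSL2 summits thus overlapped among intronic summits and did not among intergenic ones. Summits in untranslated regions and in exons of RNA genes were not split in this way. Coding exons, where the repeat was rare, held 47.9% of shared and 13.3% of private X-linked MSL2 summits. Shared intronic MSL3 summits had a repeat in 55 of 229 cases (24.0%, 18.9 to 29.9), close to shared intronic MSL2 summits. Where summits of the 2 proteins lie close together, their windows overlap, so these 2 shares are not independent.

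Among shared records, the repeat was more frequent where summits of the 2 proteins lay close, with the larger differences for MSL3. The windows of 2 summits within 100 bp of each other overlap, so the MSL3 and MSL2 shares of such summits are not independent. Where an X-linked MSL3 summit lay within 100 bp of an MSL2 summit, 99 of 739 had a repeat (13.4%, 11.1 to 16.04). In the other shared MSL3 records 23 of 738 did (3.12%, 2.09 to 4.63). For X-linked MSL2 the values were 14.2% (11.9 to 16.9) and 10.1% (8.51 to 12.004), intervals that overlap, and both lay below the 24.7% of private MSL2 summits. On the autosomes they were 8.55% (6.81 to 10.7) and 4.54% (3.47 to 5.92) for MSL3, and 9.05% (7.26 to 11.2) and 6.62% (5.27 to 8.30) for MSL2. With rank the proteins went in opposite directions on the X chromosome. In the quintile of X-linked MSL2 records with the highest −log10 p, 149 of 470 had the repeat (31.7%, 27.7 to 36.0), and in the lowest quintile 22 of 470 (4.68%, 3.11 to 6.99). For MSL3 it was 18 of 365 in the highest quintile (4.93%, 3.14 to 7.66) and 41 of 365 in the lowest (11.2%, 8.39 to 14.9). Autosomal records of both proteins had the higher share in the highest quintile. There MSL2 had 8.82% in the highest and 5.35% in the lowest quintile, and MSL3 4.67% (3.45 to 6.29) and 2.22% (1.42 to 3.44). The MSL2 intervals overlapped, and the MSL3 intervals came within rounding of each other.

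**Figure D5:**
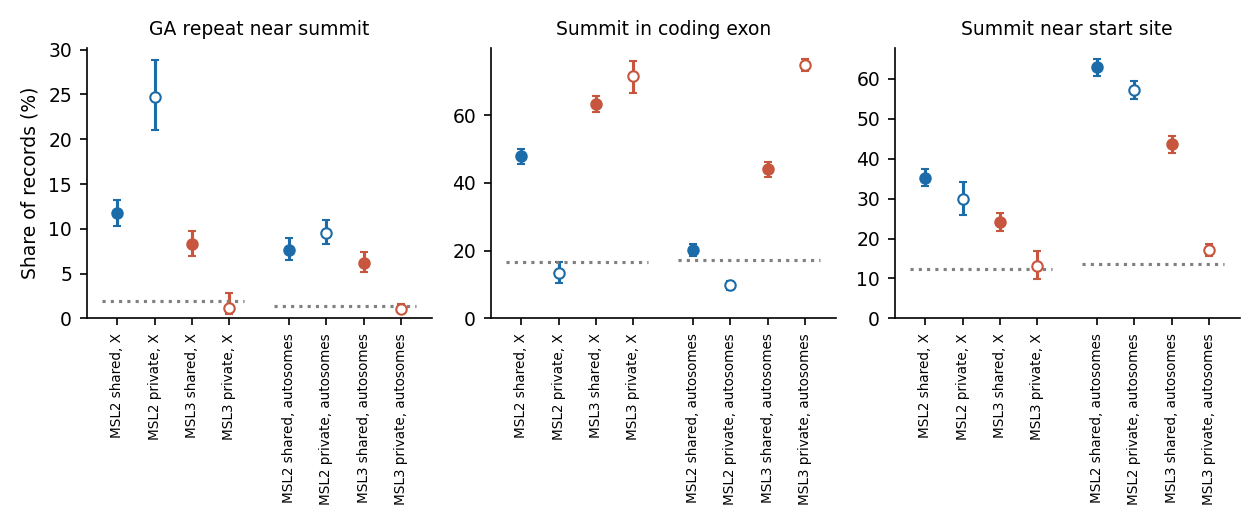
Share of shared (filled) and private (open) records (%, vertical axis) with a GA repeat within 100 bp of the summit, with the summit in a coding exon, and with the summit within 500 bp of a transcription start site, for MSL2 (blue) and MSL3 (red). Bars are 95% Wilson intervals and dotted lines the share of windows, bases or positions of the same chromosomes. Private X-linked MSL2 summits had the most GA repeats (24.7%) and, among X-linked groups, the lowest share in coding exons (13.3%).

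The HAS, a set of X-linked sites that the study compiled from earlier work, were nearer to MSL2 summits than to MSL3 summits. The nearest MSL2 summit lay a median of 149 bp from the middle of a HAS and the nearest MSL3 summit 657 bp. Within 100 bp there was an MSL2 summit at 120 HAS (39.9%, 34.5 to 45.5) and an MSL3 summit at 29 (9.63%, 6.79 to 13.5), and the MSL2 summit was the closer at 241 HAS (80.1%). For the 104 HAS that are given as 1 base, the medians were 40.5 bp for MSL2 and 651.5 bp for MSL3, and 73 and 11 had a summit within 100 bp. Records with a HAS nearby were mostly shared ones. A HAS lay within 500 bp of 356 of 1885 shared X-linked MSL2 records (18.9%) and 2 of 466 private ones (0.429%), and of 316 shared (21.4%) and 4 private MSL3 records (1.14%). As background, 2.44% of X positions lie within 500 bp of a HAS. Earlier MSL data chose the HAS, so they are not a readout independent of these proteins.

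Other lists of the series were then read at the same records. The male MSL1 list, made from a single library without IDR, is the longest and lies within 500 bp of 29.4% of X positions and 20.7% of autosomal positions. It had a record at 97.2% of shared and 62.4% of private X-linked MSL2 records (58.0 to 66.7), and at 97.1% of shared and 75.9% of private X-linked MSL3 records (71.1 to 80.03). On the autosomes MSL1 was found at 93.9% of shared and 66.9% of private MSL2 records, and at 94.4% of shared and 79.4% of private MSL3 records. Private records of either protein thus had MSL1 less often than shared records, and more often than single positions did. Except for autosomal MSL3, private records were also narrower than shared ones, so width enters both comparisons.

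In M1[WT]+MSL2 females, which express MSL2 from a transgene, private male records were then looked up. These females also lack functional msl-1, and carry Ubi:msl-2WT-FLAG over Ubi:msl-1WT. The female lists of MSL1, MSL2 and MSL3 lie within 500 bp of 5.27%, 10.6% and 9.36% of X positions. Shared X-linked MSL2 records of males had a female record in 31.7%, 55.0% and 49.7% of cases. Private X-linked MSL2 records had one in 2.15%, 29.2% (25.2 to 33.5) and 1.93% (1.02 to 3.63). Of the 3, only female MSL2 stood above its background of single positions at these X-linked records. Private X-linked MSL3 records had female MSL1, MSL2 and MSL3 in 3.12%, 16.5% (13.0 to 20.7) and 15.6% (12.2 to 19.8). On the autosomes the backgrounds were 0.502%, 1.09% and 0.518%. Private autosomal MSL2 records had female MSL2 in 234 of 1894 cases (12.4%, 10.9 to 13.9), female MSL1 in 41 (2.16%) and female MSL3 in 8 (0.422%). Private autosomal MSL3 records had female MSL3 in 125 of 2359 cases (5.30%, 4.47 to 6.28), female MSL1 in 62 (2.63%) and female MSL2 in 33 (1.40%, 0.998 to 1.96). With their intervals, the female MSL1 shares stood above the background of single positions at private autosomal records of both proteins. They stood below it at private X-linked MSL2 records. Of the 115 private X-linked MSL2 records with a GA repeat, 21 had female MSL2 (18.3%, 12.3 to 26.3), against 115 of the 351 without one (32.8%, 28.1 to 37.8).

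Stronger records were shared more often. Among X-linked records the highest quintile by −log10 p was shared in 447 of 470 cases for MSL2 (95.1%, 92.8 to 96.7) and 362 of 365 for MSL3 (99.2%, 97.6 to 99.7). In the lowest quintile these shares were 69.8% and 57.8%. On the autosomes the highest quintiles were shared in 65.0% and 62.7% of cases and the lowest in 42.4% and 34.3%. The ranks of partners were only weakly related. Over shared MSL2 records and their strongest MSL3 partner, Spearman's rho between percentiles was 0.28 on the X chromosome (1885 pairs over 1176 MSL3 records) and 0.087 on the autosomes (1849 pairs over 1627 MSL3 records). The points share partners and may share IgG, and rho is given as a description. X-linked MSL3 records stood high in their list, with a median percentile of 74.1 against 42.1 on the autosomes, while MSL2 records had medians of 49.9 and 50.0.

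The shared part differed with the records and the limit used. With the 3000 strongest records of each list, the shared part was 76.8% of MSL2 and 63.7% of MSL3 records on the X chromosome, and 32.4% and 36.6% on the autosomes. Requiring summits rather than edges within 500 bp gave 43.3% and 55.5% on the X chromosome and 30.1% and 26.3% on the autosomes. The X chromosome stood above the autosomes for both proteins under each of these settings.

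The lncRNA genes roX1 and roX2 and the protein phosphatase gene Pp2C1 were followed in both lists first. At roX1 (X:3857230-3862697, minus strand), the MSL2 record X:3860630-3862784 was rank 1 of 6110 and lay inside the MSL3 record X:3858546-3862816, rank 8 of 6129. Their summits lay 18 bp apart in the roX1 exon. At roX2 (X:11579065-11580432, plus strand), the MSL2 record spanned 10778 bp, rank 19, with its summit in the exon, whereas the MSL3 record of 8461 bp, rank 225, had its summit 1866 bp away in a coding exon of CG11695. Both behaviours were found inside Pp2C1. In its intron the MSL2 summit X:4684539, rank 10, and the MSL3 summit X:4684552, rank 207, lay 13 bp apart. Farther along the same gene, an MSL2 record of rank 2922 and an MSL3 record of rank 152 overlapped with summits at X:4680835 and X:4683112.

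Several MSL2 summits fell in 1 MSL3 record at 5 X-linked sites, the records with 7 and 6 MSL2 records inside and the 2 widest of the 4 records with 5. The record in PhKgamma, the catalytic subunit of phosphorylase kinase, spanned 10877 bp (X:11694848-11705724) and held 7 MSL2 records. These ranged from rank 22 to rank 5603 of the MSL2 list, and the MSL3 summit lay 358 bp from the strongest of them, at the GA repeats shown above. The record around MKP-4, a MAP kinase phosphatase, and e(y)3, a chromatin remodelling subunit, spanned 13357 bp and held 6 MSL2 records, and its summit lay 379 bp from the strongest, rank 34. In rictor, a subunit of the TOR complex that phosphorylates Akt, a record of 8765 bp held 6 MSL2 records, none of the first 1000 ranks. The MSL3 summit there lay 6 bp from an MSL2 summit in a coding exon that holds no GA repeat, rather than at the strongest MSL2 summit of the record, which lies in the intron with the repeat shown above. The widest MSL3 record of the X chromosome, 26305 bp over Coa8, mRpL16 and arm (the beta-catenin gene), held 5 MSL2 records with 2 strong summits, rank 30 in Coa8 and rank 21 in arm. The MSL3 summit lay 86 bp from the one in Coa8. A record of 17056 bp over Cubn and LPCAT, a phospholipid acyltransferase gene, also held 5, with its summit 187 bp from the strongest, rank 148.

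On the autosomes containment stayed small. The MSL3 record in Lk6, a kinase of the translation factor eIF4E, held 3 MSL2 records, in a span of 3767 bp on 3R, and those ranked from 3400 to 5630. The records in Not1, the scaffold of the CCR4-NOT deadenylase, and Uba1, the ubiquitin-activating enzyme, held 2 each and are the widest of 11 such records. The Not1 record was also the widest autosomal MSL3 record (9561 bp), and its summit lay 2459 bp from the nearest MSL2 summit. In Uba1 the summits lay 11 bp apart. In the reverse direction on the X chromosome, MSL2 records at Ype, Hex-A (a hexokinase) and IntS6 (an Integrator subunit) held 2 MSL3 records each, within spans from 4548 to 5291 bp, the widest of 13 such records.

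The widest X-linked MSL2 records, 14060 bp in CG11122, 11679 bp at CG2889 and nocte, and 11081 bp in pcm, the Xrn1 exonuclease gene, were all shared. In CG11122 the MSL2 and MSL3 summits lay 12 bp apart, and at nocte and pcm 2706 and 3787 bp. The widest X-linked MSL3 records after Coa8 were 18940 bp in CG12204 and 18807 bp in HUWE1, a ubiquitin ligase gene. On the autosomes the widest MSL2 records lay in CG3552 (6049 bp), in Pgk, a glycolytic gene (5033 bp, holding 3 MSL3 records), and 81 bp from msl-1 on 2L (4947 bp). These flies carry msl-1 sequence in the transgene as well, whose part in the last record was not tested. The widest autosomal MSL3 records after Not1 lay in Bruce, on 3R (8231 bp), and Fitm, on 3L (7714 bp). The Bruce record was private, 9144 bp from the nearest MSL2 record.

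The strongest private MSL2 records of the X chromosome all had their summits in introns, of norpA (phospholipase C of phototransduction, percentile 95.1), Raf (the MAP kinase kinase kinase, rank 406), CG3638 (rank 484) and CG43658 (rank 636). Their widths were 874 to 1248 bp, and each had a female MSL2 record within 500 bp. The nearest MSL3 record lay between 511 bp (CG3638) and 23973 bp (CG43658) away. The strongest private MSL3 records of the X chromosome were at Fur2, a furin protease (rank 399, coding exon), drd (rank 411, 131 bp from the gene), Sxl, the switch gene of sex determination (rank 501, 118 bp from a start site) and CG2076 (rank 564, coding exon, where an antisense gene overlaps). The Fur2 record was 6472 bp wide and lay 853 bp from MSL2, and the other widths were 417 to 2978 bp.

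The 4 strongest private MSL3 records of the autosomes all had their summits between genes. They were 113 bp from mRpL13, a mitochondrial ribosomal protein gene (rank 59), 130 bp from CG7029 (rank 61), 568 bp from CG13912 (rank 64) and 249 bp from tara (rank 66), and 439 to 814 bp wide. The records at CG7029 and CG13912 had no MSL1 record of males within 500 bp. The 4 strongest private MSL2 records, at CG7601 (rank 143), CG5098 (rank 162), the lncRNA gene CR43650 (rank 168) and hid, a cell death gene (rank 174), had summits 82 to 246 bp from a start site. All 4 had a female MSL2 record within 500 bp.

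Among the shared pairs with the highest mean percentile on the X chromosome, roX1 was followed by Rip11, hep (the kinase upstream of JNK) and CG2278. The Rip11 summits, rank 8 for MSL2 and rank 5 for MSL3, lay 46 bp apart in an intron. In hep the MSL2 summit (rank 7) lay in an intron and the MSL3 summit (rank 11) 230 bp away in a coding exon. In CG2278 the MSL3 summit (rank 2) lay 234 bp from the MSL2 summit (rank 23). The highest autosomal pairs lay at Socs36E, a JAK/STAT inhibitor (ranks 194 and 24), mod(mdg4), a chromatin insulator protein (ranks 118 and 165), ATPsynC, a subunit of ATP synthase (ranks 303 and 12), and COX7AL2 (ranks 35 and 352). The MSL2 and MSL3 summits of the pairs at ATPsynC and COX7AL2 lay 15 and 93 bp apart. The paired records at Socs36E and mod(mdg4) did not overlap each other. Their MSL2 and MSL3 summits were at 2L:18151339 and 2L:18152508, and at 3R:21376411 and 3R:21375674. Each of these MSL2 records did overlap another MSL3 record, and the nearest MSL3 summits lay 214 and 270 bp away. The 4 X-linked pairs lay at HAS, and each of the 8 pairs had a male MSL1 record within 500 bp.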

How the data were processed

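ChIP-seq peaks of MSL2 and MSL3 (2 libraries each) in M1[WT] males were analysed from the deposited lists. According to the methods of the study, cutadapt and Bowtie version 2 were used for trimming and for mapping to dm6. Duplicates (Picard) and blacklisted regions were taken out before MACS2 compared each protein with nonspecific IgG at a soft p-value threshold of 0.01. IDR then selected reproducible peaks at 0.05 for replicates and 0.01 for pseudoreplicates. The lists nevertheless hold records with −log10 p values as low as 1.01, which that soft threshold does not cover. The build dm3 also appears in the submitters' processing notes, without a role, and the record ends lay within the dm6 chromosome lengths. The columns the authors deposited hold positions, a score from IDR, a ratio (fold enrichment over IgG) and −log10 p values. Read depth is not given in the sources used here. Pooled lists carry no replicate error, so shares have 95% Wilson intervals and no p-value.

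Records were matched with Python 3.11.15, numpy 2.4.6 and pandas 2.3.3. The matching was tested on simulated lists and checked against bedtools 2.31.1, which gave the same numbers of overlapping and contained records. Positions are 1-based. Gene annotation came from Ensembl release 115. Ranks are by −log10 p (1 is the strongest), and a percentile of 100 is the top of a list. The named sites are roX1, roX2 and Pp2C1, the 5 X-linked and 3 autosomal MSL3 records holding most MSL2 records, 3 X-linked MSL2 records in reverse (ties, which occurred in each case, broken by width) and, on the X chromosome and the autosomes, the 3 widest and the 4 strongest private records of each protein and the 4 highest shared pairs. Each is named by the gene holding its summit, else by the nearest. The comparison, lists and rules were chosen with earlier results of these data known. Alternatives changed the limit for sharing, the set of records, containment, the summit, the repeat and the promoter window. The authors' other lists served as readouts at the records.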

Additional observations from a re-analysis of the deposited data

How the results depend on the processing

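No paired analysis was possible because each protein has 1 pooled list, so no replicate could be left out either. For 24 results 124 alternatives were run, of which 44 stayed within the 95% interval of the reported value and 80 fell outside it. Values below are given in the order MSL2 on X, MSL3 on X, MSL2 on autosomes and MSL3 on autosomes. Joining overlapping records changed no value, since no records of 1 list overlap. Why values moved was not tested, except that fewer records enter the lists of strongest records and that wider limits admit more records.

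The share with a partner was 77.2%, 75.8%, 41.7% and 37.3% when records had to overlap, 83.1%, 86.1%, 55.8% and 52.2% with a limit of 1000 bp, 43.3%, 55.5%, 30.1% and 26.3% with summits within 500 bp, 76.7%, 75.3%, 39.0% and 34.5% when 1 record had to cover at least 50% of the other. It was 76.9%, 64.2%, 33.0% and 36.9% for the 50% of records with the highest −log10 p, 76.8%, 63.7%, 32.4% and 36.6% for the 3000 strongest, and 78.9%, 63.8%, 31.4% and 37.1% for the 50% with the highest fold. The X chromosome stood above the autosomes for both proteins under each of these.

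Median widths were 1173 bp, 1905.5 bp, 954 bp and 1036.5 bp for the 50% strongest and 1178 bp, 1912 bp, 958 bp and 1037 bp for the 3000 strongest. The share inside 1 record was 63.8%, 28.3%, 20.7% and 21.9% with 100 bp of slack, 75.6%, 71.8%, 35.5% and 31.8% for the summit alone and 35.7%, 9.12%, 3.74% and 10.8% for the 50% strongest. The median summit distance was 365 bp, 100 bp, 178 bp and 219.5 bp over shared records, 986 bp, 1331 bp, 5645 bp and 3840.5 bp over the 50% strongest and 754 bp, 390 bp, 1607 bp and 2002 bp between middles of records.

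The GA repeat was found at 26.7%, 16.9%, 24.1% and 13.3% of summits with 6 alternating bases, 10.8%, 4.70%, 5.61% and 1.68% within 50 bp and 18.3%, 10.5%, 14.4% and 7.23% within 250 bp. A start site lay within 250 bp of 22.6%, 13.3%, 48.5% and 20.3% and within 1000 bp of 48.5%, 41.3%, 71.7% and 48.4% of summits.

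The intervals of the 2 IDR inputs were added after seeing the data. With them MSL2 records lay inside X-linked MSL3 records in 43.4% and 41.8% of cases, and the autosomal MSL3 median width was 839 bp with either input.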
